A study of Homo sapiens with 6 samples.

Results

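RAB GTPases are small membrane-bound switches that give each vesicle and organelle its identity. A RAB is active with GTP bound and inactive with GDP bound. Exchange factors, many of them with a DENN domain, load GTP and set where a RAB acts, and GTPase-activating proteins, most of them with a TBC domain, end the active state. A prenyl group attached by a transferase anchors the RAB in the membrane, and GDP dissociation inhibitors carry inactive RABs through the cytosol. In T cells RABs are known for the recycling of antigen receptors to the surface and for the release of granules.

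The genes described here are the protein-coding genes whose symbols start with RAB and a digit, RABGAP, RABGEF, RABEP, RABIF, TBC1D or DENND and whose mean over the 6 libraries was at least 10 normalized counts. Such a start was found for 125 symbols in the deposited table. Of these, 118 were protein-coding and 7 were not, and 10 of the 118 had a mean under 10, which left 108 of the 17202 genes in the table. They were 46 RAB GTPases, 38 GTPase-activating proteins, 15 exchange factors and 9 effectors or other genes. At the minimum of 10, the nearest genes outside were RAB44 with a mean of 8.81 and RAB40A with 8.73 normalized counts, and the nearest inside were TBC1D3B with 10.4 and TBC1D3I with 11.4.

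The cells were DND41, a human T-cell acute lymphoblastic leukaemia line. MB1-47, which the series title names as a mitochondrial uncoupler, was given to 3 cultures at 4 mM, a unit copied from the labels and not checked. The other 3 received DMSO, the solvent, and both groups were kept for 24 h in RPMI with serum. The labels speak of plating in triplicates and give no more on how separate the cultures were. The p-values therefore speak only to library-to-library spread, part or all of which may be technical.

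Total RNA was sequenced with a stranded protocol, and all levels below are the authors' normalized counts. Each change is a difference of log2(value + 1), MB1-47 minus DMSO, given with its standard error and tested with limma over 13465 genes with Benjamini-Hochberg adjustment at 0.05. Totals of the normalized counts ran from 28323706 to 32667526 per library. The MB1-47 totals, 2.83e+07 to 2.97e+07, all lay under the DMSO totals, 3.08e+07 to 3.27e+07. They are not depths, and the depth is unknown. Of 13 markers of the T-ALL line 12 were in the table and 10 had a mean of at least 50; CD2 (41.5) and CD5 (13.5) were under it. The summed level of these 12 was 57500 to 65000 with MB1-47 and 93900 to 95600 with DMSO. RAG1, at 29600 with MB1-47 and 39300 with DMSO on average, was the largest part of it. TLX3 (1990 with MB1-47, 1390 with DMSO) and CD5 (17.8 and 9.31) averaged higher with MB1-47, and the rest averaged lower. Of 14 markers of other cell types 8 were in the table, and CD79A alone had a mean of at least 50, at 6830 with MB1-47 and 16500 with DMSO. The summed level of these 8 was 6480 to 7170 with MB1-47 and 16000 to 17100 with DMSO, and the part of either marker list in the results below was not tested. On the second principal component of all genes, with 18.5% of the variance, DMSO replicate 1 stood at 57.1 and the other DMSO libraries at -40.3 and -31.8, so results are also given without it where it decides them. The values are relative levels, so fewer cells of a kind and less RNA per cell cannot be told apart.

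More RAB genes rose than fell with MB1-47. Of the 108 genes, 28 were higher, 7 were lower and 73 stayed short of the threshold. Among all 13465 genes 38.1% passed, 18.3% higher and 19.8% lower, while among the 108 genes 32.4% passed, 25.9% higher and 6.48% lower. The share that passed was thus near that of all genes, and the members that passed were mostly higher where all genes were close to evenly split. The median change of the 108 genes was 0.25 and that of all genes was 0.02. Changes were mostly moderate: 7 genes rose at least 2-fold, against 4.75% of all genes, and none fell that much, against 5.99%. The groups did not overlap in 48 of the 108 genes, against 49.3% of all genes. Leaving out any 1 library kept 24 of the 35 calls, 18 higher and 6 lower.

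Scaling affected the weaker changes. When libraries were given equal totals, the all-gene median became 0.15 in place of 0.02, the all-gene shares became 24.8% higher and 15.3% lower, and 41 RAB-related genes were higher and 5 lower. Under that scaling 33 of the 35 genes kept their call; TBC1D14 and RAB35 no longer passed as lower. Without an intensity trend in limma 27 members passed; the 8 lost were RAB18, RAB28, RAB35, RAB3GAP2, TBC1D3L, RAB3IP, DENND4C and DENND5A.

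**Figure D1:**
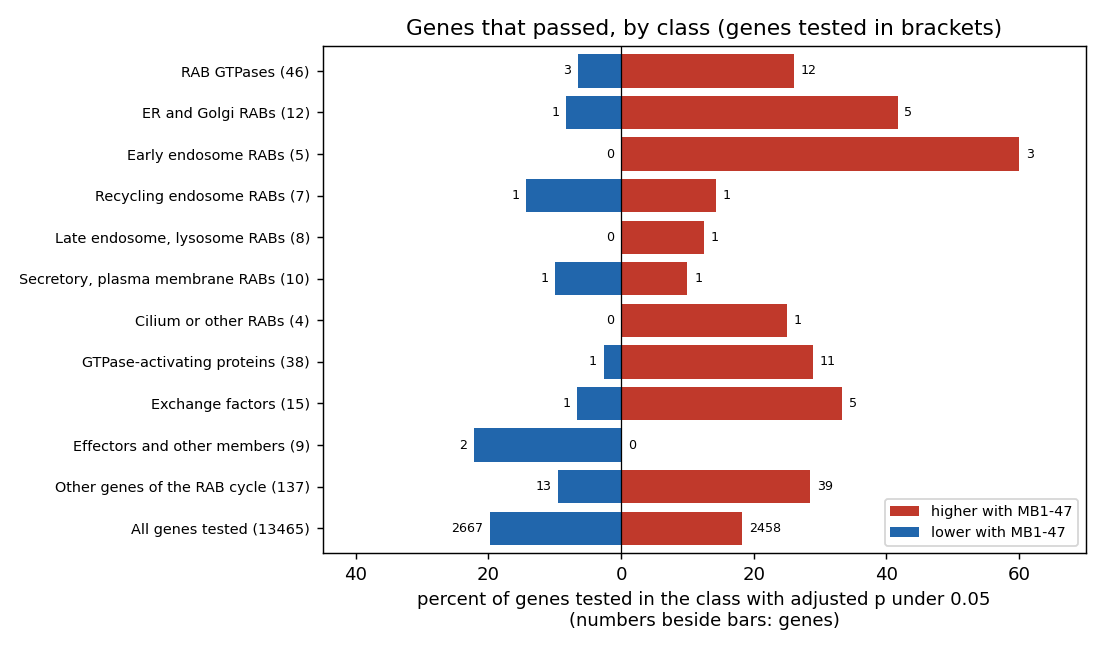
Share of the genes tested in each class that passed the test at an adjusted p under 0.05, in percent, with higher genes to the right and lower genes to the left; numbers beside the bars count genes and brackets give the genes tested. The RAB GTPases, the GTPase-activating proteins and the exchange factors each have a longer bar to the right than to the left, and all genes tested have bars of 18.3% and 19.8%.

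Among the RAB GTPases the endoplasmic reticulum, Golgi and early endosome members held most of the rises that passed. Of 46 RABs, 12 were higher and 3 lower, with a median of 0.30. As shares, 26.1% were higher and 6.52% lower, against 18.3% and 19.8% of all genes. In all 32.6% passed, against 38.1% of all genes. By compartment, 5 of 12 RABs of the endoplasmic reticulum and Golgi were higher and 1 was lower, and 3 of 5 early endosome RABs were higher and none lower. Recycling endosome RABs had 1 higher and 1 lower of 7, and RABs of secretory vesicles and the plasma membrane 1 higher and 1 lower of 10. In the late endosome and lysosome group 1 of 8 was higher, and 1 of 4 of the remaining RABs. Median changes were closer: 0.38 for the endoplasmic reticulum and Golgi, 0.52 for early endosomes, 0.36 for late endosomes and lysosomes and 0.44 for the remaining RABs. They were 0.02 for recycling endosomes and -0.06 for secretory vesicles and the plasma membrane. With equal library totals 4 of 8 late endosome and lysosome RABs and 7 of 12 of the endoplasmic reticulum and Golgi were higher. These groups are small, and no test of the difference between compartments was made. Each RAB was placed in a single compartment, and some placements are open. RAB39B, the 1 rise of the late endosome and lysosome group, could be placed elsewhere.

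**Figure D2:**
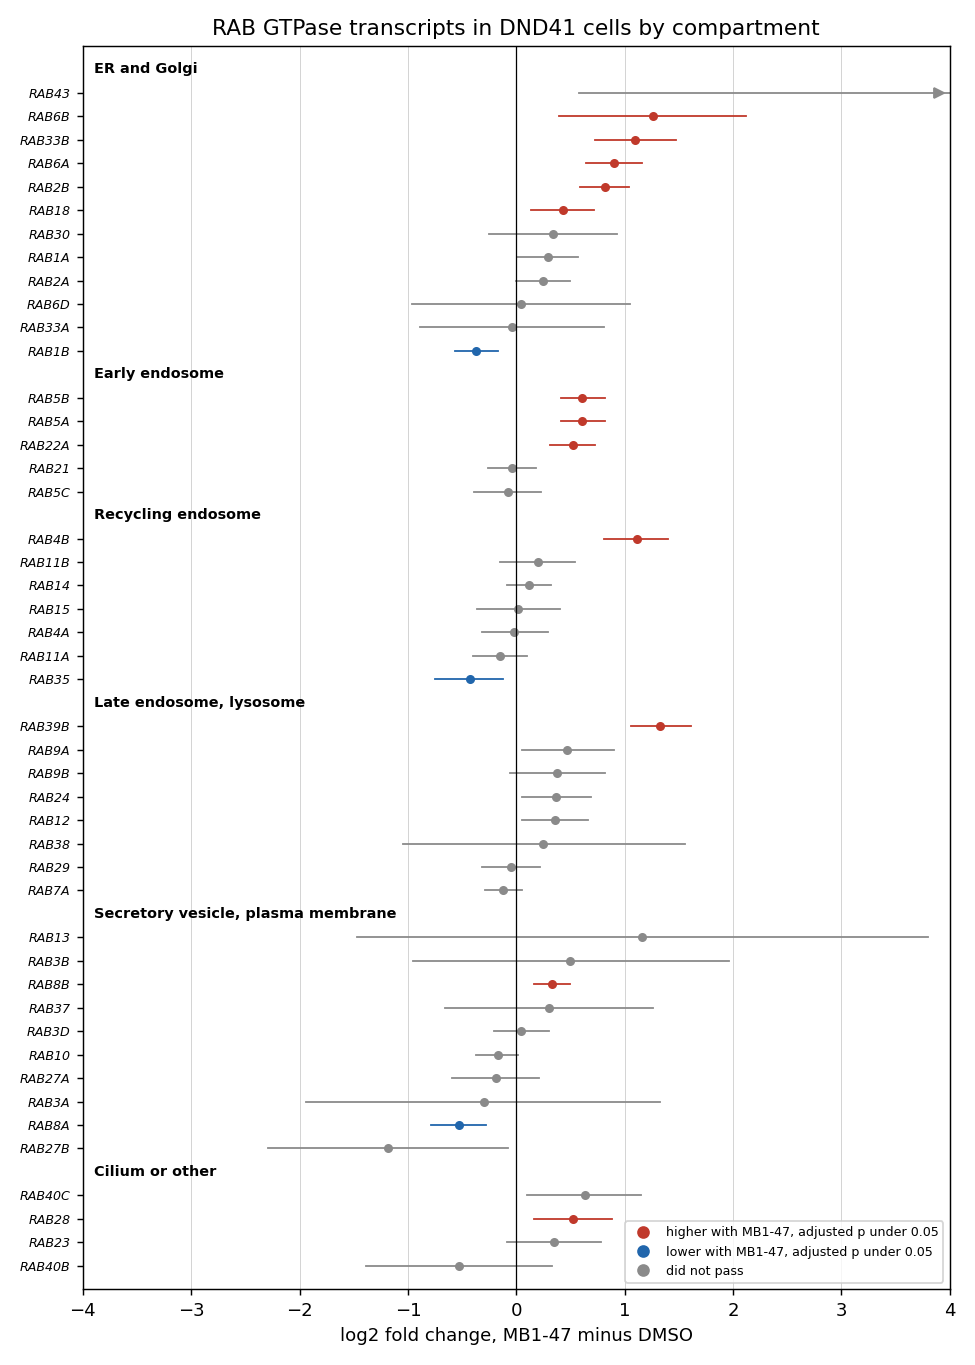
Log2 fold change of each of the 46 RAB GTPases, MB1-47 minus DMSO, with its 95% confidence interval, grouped by compartment; red and blue points passed the test and grey points did not. RAB43, at 4.39, lies beyond the axis and is drawn as an arrow (1.64 without DMSO replicate 1); RAB39B, RAB6B, RAB4B and RAB33B are the called RABs past 1.

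RAB6A, the main RAB of the Golgi and of transport from endosomes back to it, had 15555, 12687 and 16455 normalized counts with MB1-47 and 8731, 6891 and 8331 with DMSO. Every MB1-47 library lay above every DMSO library. RAB6A, on chromosome 11 from 73675638 to 73761137 (GRCh38), rose 1.86-fold (0.90 ± 0.12, limma adjusted p = 0.000134). RAB6B, its paralog best known from neurons, was present at a low level, with 65.7, 95.7 and 94.6 with MB1-47 and 40.1, 27.6 and 37.4 with DMSO. RAB6B rose 2.39-fold (1.26 ± 0.39, limma adjusted p = 0.0262), a call lost without MB1-47 replicate 2 (0.0928) or replicate 3 (0.0871) or DMSO replicate 2 (0.0689). Reads of RAB6A and its near-identical copy RAB6D, which averaged 39.6 ± 11.6 with MB1-47 and 37.8 ± 7.03 with DMSO (SD, n = 3), can be split between them.

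RAB33B, a Golgi RAB that binds the autophagy protein ATG16L1, had 703, 646 and 632 normalized counts with MB1-47 and 352, 268 and 308 with DMSO. The groups lay far apart, and the rise was 2.14-fold (1.10 ± 0.17, limma adjusted p = 0.000375). Its paralog RAB33A was low, and its change of -0.04 (95% interval -0.89 to 0.81) did not pass. RAB2B, of the early secretory pathway, had closely matching libraries, with 1886, 1881 and 1844 with MB1-47 against 1069, 1068 and 1048 with DMSO. RAB2B rose by 0.82 ± 0.10, and its paralog RAB2A did not pass (0.25 ± 0.11, limma adjusted p = 0.114). RAB18, found on the endoplasmic reticulum and lipid droplets, rose by 0.43 ± 0.13. That call was lost without MB1-47 replicate 3 (limma adjusted p = 0.097), DMSO replicate 2 (0.0866) or replicate 3 (0.0763).

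In the RAB1 pair, which drives transport from the endoplasmic reticulum to the Golgi, RAB1B fell and RAB1A did not pass. RAB1B had 2834, 3088 and 3223 normalized counts with MB1-47 and 3915, 3806 and 4121 with DMSO, so every MB1-47 library was lower. RAB1B fell by 0.37 on the log2 scale, or 1.30-fold (limma adjusted p = 0.00711). RAB1A averaged 7684 ± 1160 with MB1-47 and 6269 ± 828 with DMSO (SD, n = 3), with overlapping groups. Its change of 0.29 ± 0.13 did not pass (limma adjusted p = 0.0972), though it passed with equal library totals, with quantile normalization, with a replicate block and without MB1-47 replicate 2.

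RAB43, a Golgi RAB, is uncertain. Its values were 1130, 732 and 1039 with MB1-47 and 0, 606 and 153 with DMSO, and the change of 4.39 ± 1.73 did not pass (limma adjusted p = 0.0677). The change was 1.64 without DMSO replicate 1 and 6.26 without DMSO replicate 2, and it passed in both cases (limma adjusted p of 0.015 and 0.0142), as it did with a pseudocount of 5 and with a replicate block. The read-through transcript ISY1-RAB43 shares its sequence and had 1186, 2047 and 1438 with MB1-47 and 1159, 770 and 1397 with DMSO. Summed with the pseudogene RAB43P1, the 3 entries held 2332, 2779 and 2477 with MB1-47 against 1192, 1395 and 1581 with DMSO, a ratio of means of 1.82 with no overlap.

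RAB5 directs fusion of early endosomes and has 3 paralogs. RAB5A had 3777, 3679 and 3685 normalized counts with MB1-47 and 2644, 2269 and 2390 with DMSO. RAB5B had 6253, 5291 and 5914 with MB1-47 and 4040, 3681 and 3682 with DMSO. RAB5C had 1644, 1527 and 1447 with MB1-47 and 1921, 1317 and 1701 with DMSO. The groups of RAB5A and RAB5B did not overlap and those of RAB5C did. RAB5A and RAB5B each rose 1.53-fold (0.61 ± 0.09, limma adjusted p of 0.00038 and 0.000371). RAB5C changed by -0.08 ± 0.14 (95% interval -0.39 to 0.23) and did not pass. RAB22A, another early endosome RAB, rose by 0.52 ± 0.09, to 4242 ± 228 with MB1-47, against 2960 ± 232 with DMSO (SD, n = 3). RAB21 did not pass (-0.04 ± 0.10).

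Recycling RABs were split between one large rise, one small fall and 5 that did not pass. RAB4B, a paralog of the fast-recycling RAB4A, had 1378, 1242 and 1523 normalized counts with MB1-47 and 706, 591 and 625 with DMSO. All MB1-47 libraries were about double the DMSO level, and the rise was 2.15-fold (1.11 ± 0.13, limma adjusted p = 7.96e-05). The read-through RAB4B-EGLN2 shares its sequence and did not pass on its own; RAB4B and RAB4B-EGLN2 summed to 1624, 2043 and 2122 with MB1-47 and 1177, 1055 and 974 with DMSO, also without overlap. RAB4A was at 713 ± 28.1 with MB1-47 and 725 ± 78.5 with DMSO (SD, n = 3). RAB35, which recycles cargo to the plasma membrane and the immune synapse, fell by 0.43 on the log2 scale (limma adjusted p = 0.0334). That call was lost with equal library totals and without MB1-47 replicate 1 (0.124) or replicate 3 (0.0961), DMSO replicate 2 (0.096) or replicate 3 (0.0894). RAB11A, the central RAB of the slow recycling route, did not pass (-0.15 ± 0.11).

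RAB39B had the largest change among RABs that passed. This RAB, known from neurons and from autophagy, had 2654, 2084 and 2560 normalized counts with MB1-47 and 1032, 894 and 955 with DMSO. It rose 2.52-fold (1.33 ± 0.12, limma adjusted p = 1.34e-05) and lies on chromosome X from 155258241 to 155264589. RAB7A, the RAB of late endosomes and lysosomes, had 6063, 6021 and 5600 with MB1-47 and 6458, 6293 and 6490 with DMSO. Its change was -0.12 ± 0.08, did not pass (limma adjusted p = 0.245) and became 0.01 with equal library totals. RAB9A, RAB12 and RAB24, of late endosomes and autophagy, changed by 0.47, 0.36 and 0.37 and did not pass; each passed with equal library totals.

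The paralogs RAB8A and RAB8B, which carry cargo to the plasma membrane and the cilium, went in opposite directions. RAB8A had 1378, 1653 and 1409 normalized counts with MB1-47 and 2074, 1992 and 2360 with DMSO. RAB8B had 8174, 7740 and 7940 with MB1-47 and 6669, 6075 and 6250 with DMSO. Neither gene overlapped between groups. RAB8A fell 1.45-fold (-0.53 ± 0.12, limma adjusted p = 0.00389) and RAB8B rose 1.26-fold (0.33 ± 0.08, limma adjusted p = 0.00633); both kept their direction and call under every scaling tried. RAB27A, the RAB of lytic granule release, was at 578 ± 82.5 with MB1-47 and 663 ± 135 with DMSO (SD, n = 3) and did not pass. RAB10, a relative of RAB8, did not pass either (-0.17 ± 0.09). RAB28, a ciliary RAB, rose by 0.52 ± 0.16, a call lost without MB1-47 replicate 1 (limma adjusted p = 0.0679) or replicate 3 (0.0823) or DMSO replicate 2 (0.089).

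**Figure D3:**
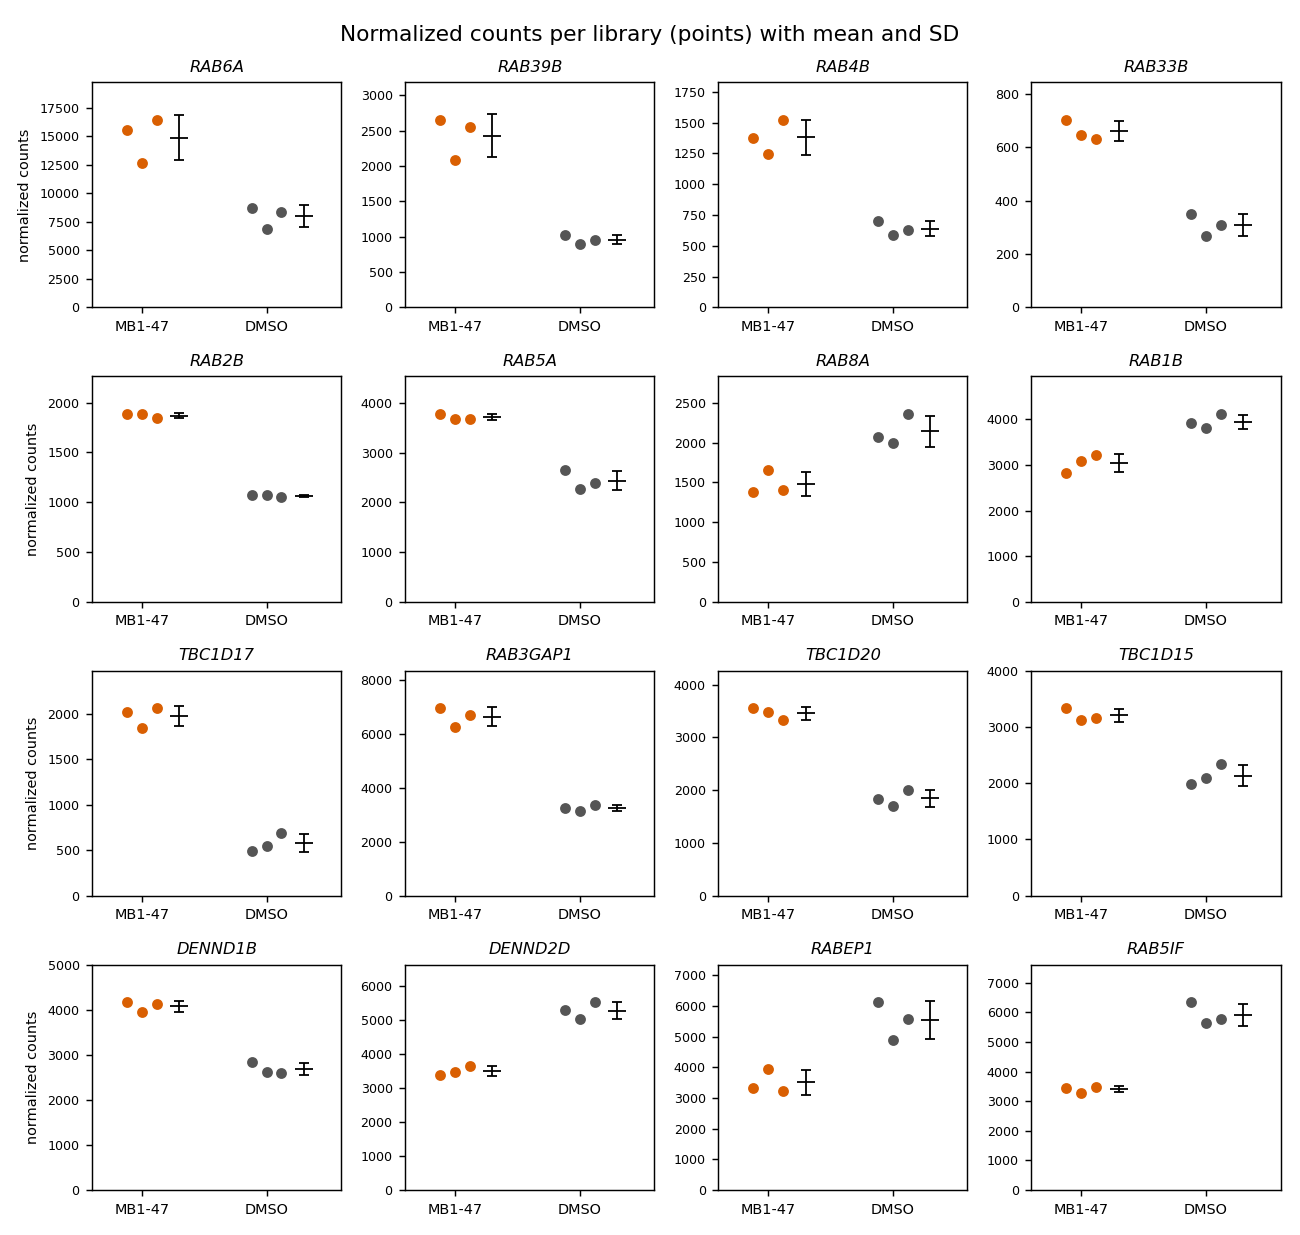
Normalized counts of 16 genes in each of the 3 MB1-47 and 3 DMSO libraries (points), with the mean and SD beside them; axes start at 0 and differ between panels. In every panel the MB1-47 points lie all above or all below the DMSO points, as for RAB2B at 1844 to 1886 against 1048 to 1069.

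Ratios of like-named genes within a library do not depend on how libraries are scaled. Most such pairs are paralogs, and RAB3GAP1 and RAB3GAP2 are subunits of one complex. Among members with a mean of at least 50, 28 pairs could be formed, and in 14 the ratios of the groups did not overlap. The same was true of 55.8% of 849 pairs of like-named genes over the whole table, so the share is no higher than in other families. The RAB8A to RAB8B ratio was 0.169, 0.214 and 0.177 with MB1-47 and 0.311, 0.328 and 0.378 with DMSO. The RAB4A to RAB4B ratio was 0.502, 0.600 and 0.462 with MB1-47 and 1.10, 1.29 and 1.01 with DMSO. Both shifted toward the B paralog in every MB1-47 library. The RAB1A to RAB1B ratio was 2.80, 2.08 and 2.70 with MB1-47 and 1.79, 1.41 and 1.56 with DMSO, a shift toward RAB1A. The RAB5A to RAB5B ratio overlapped between groups, with a log2 mean of -0.64 in both. The ratios are not corrected for transcript length, so they show how a pair shifted and not which gene was more abundant. The exact permutation test, two-sided, gave p = 0.1 for each of the 14 pairs, the smallest value that 3 libraries against 3 can give (0.2 after Benjamini-Hochberg adjustment over the 28 pairs).

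**Figure D4:**
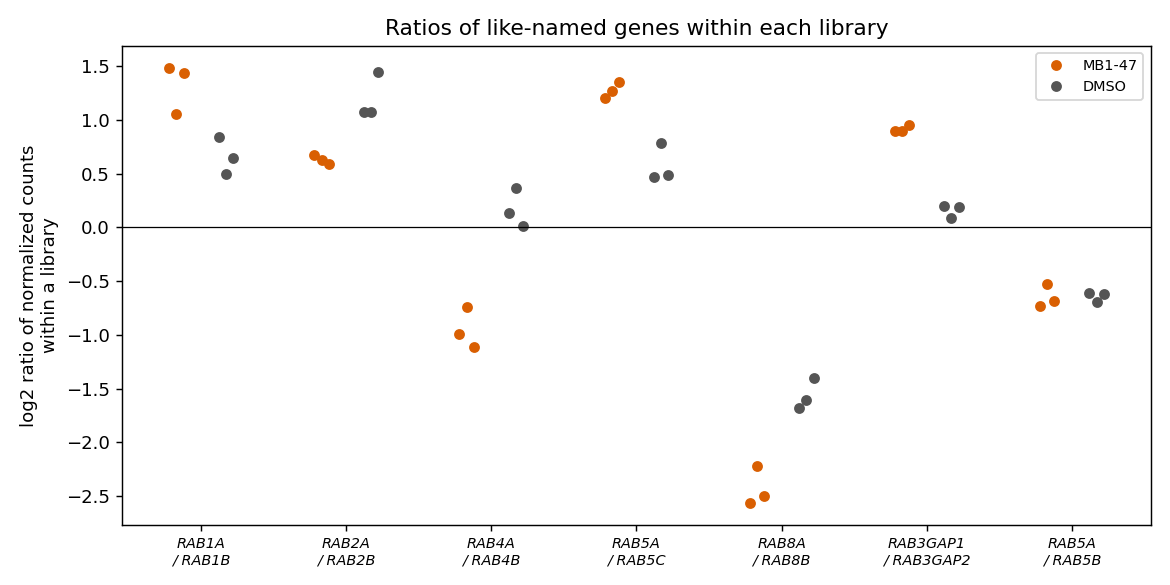
Log2 ratio of the normalized counts of 2 like-named genes in each library, with MB1-47 left of DMSO in each pair. The groups are apart for 6 of the pairs shown, such as RAB8A to RAB8B at -2.43 against -1.57 on average, and overlap for RAB5A to RAB5B at -0.64 in both groups.

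GTPase-activating proteins that passed were nearly all higher. Of 38 tested, 11 were higher and 1 was lower, and their median change was 0.26. The class takes TBC1D, RABGAP and RAB3GAP members by symbol and not by shown activity. Its higher genes thus include RAB3GAP2 and TBC1D23, described below as not catalytic. The share that passed was 31.6%, against 38.1% of all genes. By direction 28.9% were higher and 2.63% lower, against 18.3% and 19.8% of all genes. Without MB1-47 replicate 3 or DMSO replicate 1, 7 were higher. The list holds 6 copies of the hominoid gene TBC1D3, whose reads can be exchanged between copies; without them 10 of 32 were higher and 1 lower, with a median of 0.20. With equal library totals 16 were higher and none lower, where the shares over all genes were 24.8% and 15.3%.

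TBC1D17 had the largest change among the 35 called genes. It encodes a TBC protein that acts on RAB8 and is a close relative of TBC1D15. TBC1D17 had 2020, 1849 and 2063 normalized counts with MB1-47 and 494, 548 and 685 with DMSO. The lowest MB1-47 library was far above the highest DMSO library. The gene, on chromosome 19 from 49877425 to 49888749, rose 3.46-fold (1.79 ± 0.14, limma adjusted p = 4.28e-06).

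TBC1D15, a GTPase-activating protein for RAB7 that is brought to mitochondria by FIS1, had 3335, 3125 and 3154 normalized counts with MB1-47 and 1988, 2085 and 2337 with DMSO. It rose by 0.59 ± 0.10 (limma adjusted p = 0.000702). TBC1D20, an endoplasmic reticulum protein that inactivates RAB1, had 3553, 3488 and 3324 with MB1-47 and 1834, 1693 and 2007 with DMSO. It rose 1.88-fold (0.91 ± 0.10, limma adjusted p = 3.8e-05). Both genes were higher in all 3 MB1-47 libraries than in any DMSO library, and neither call was lost under any alternative.

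RAB3GAP1 and RAB3GAP2 form a complex that inactivates RAB3 and is also an exchange factor for RAB18. RAB3GAP1, the catalytic subunit, had 6970, 6279 and 6701 normalized counts with MB1-47 and 3276, 3148 and 3379 with DMSO. RAB3GAP2, the non-catalytic subunit, had 3745, 3378 and 3475 with MB1-47 and 2837, 2961 and 2972 with DMSO. Neither subunit overlapped between groups, and the estimated rise of RAB3GAP1 was the larger one. RAB3GAP1 rose 2.03-fold (1.02 ± 0.08, limma adjusted p = 5.2e-06), and RAB3GAP2 1.21-fold (0.27 ± 0.09, limma adjusted p = 0.0308). The ratio of RAB3GAP1 to RAB3GAP2 was 1.86, 1.86 and 1.93 with MB1-47 and 1.15, 1.06 and 1.14 with DMSO. The RAB3GAP2 call was lost when any 1 of 5 libraries was left out, with adjusted p-values of 0.0531 to 0.11; only without MB1-47 replicate 2 did it hold.

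TBC1D31, a protein of centriolar satellites, rose 1.91-fold to 1982 ± 121 with MB1-47, against 1041 ± 136 with DMSO (SD, n = 3; limma adjusted p = 0.000146). DERL1, which starts 455 bases away on the other strand, was also higher (0.53 ± 0.09). TBC1D23, a tether of endosome-derived vesicles at the trans-Golgi with no catalytic residues, rose by 0.71 ± 0.12, and RABGAP1L by 0.65 ± 0.12; both kept their call without any 1 library. TBC1D19 (0.71 ± 0.20) and TBC1D24 (0.36 ± 0.12) also passed. TBC1D19 lost its call without MB1-47 replicate 1 (limma adjusted p = 0.0745) or replicate 3 (0.0513) or DMSO replicate 1 (0.0524). TBC1D24 lost its call when any library but DMSO replicate 2 was left out, with adjusted p-values of 0.0511 to 0.111.

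TBC1D14, a RAB11-binding protein that restrains autophagosome formation, was the one lower gene of this class. It had 2834, 2952 and 3006 normalized counts with MB1-47 and 3616, 3897 and 3789 with DMSO. Every MB1-47 library was lower, and TBC1D14 fell 1.29-fold (-0.36 ± 0.09, limma adjusted p = 0.00637). The call was lost with equal library totals (-0.23). TBC1D7, which is a subunit of the TSC complex upstream of mTORC1, and RABGAP1 did not pass, at -0.17 ± 0.12 and 0.25 ± 0.10; RABGAP1 passed with equal library totals.

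The TBC1D3 copies varied widely between libraries. TBC1D3L had 132, 246 and 311 normalized counts with MB1-47 and 23.8, 62.3 and 179 with DMSO, with overlapping groups. It passed (1.73 ± 0.61, limma adjusted p = 0.0438), and the call was lost without MB1-47 replicate 2 (0.103) or replicate 3 (0.147), DMSO replicate 1 (0.118, with a change of 1.03) or replicate 2 (0.103). The 6 copies together held 248, 343 and 354 with MB1-47 and 195, 243 and 185 with DMSO, a ratio of means of 1.52.

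**Figure D5:**
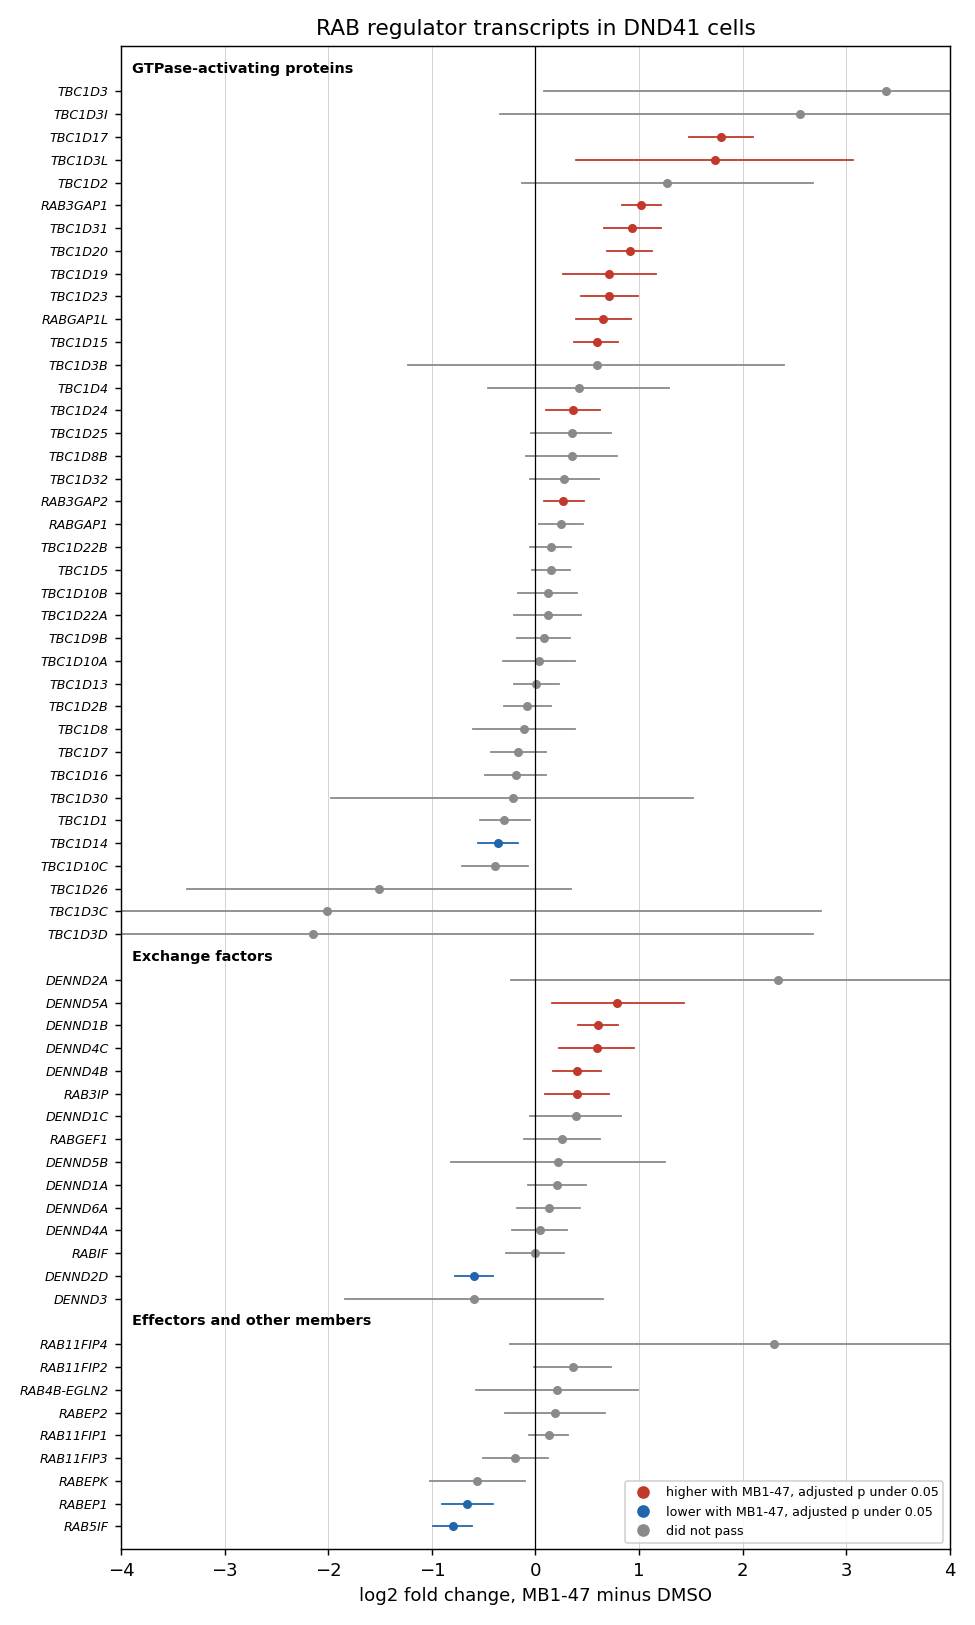
Log2 fold change, MB1-47 minus DMSO, of the 38 GTPase-activating proteins, 15 exchange factors and 9 effectors or other members, with 95% confidence intervals cut at the axis limits; red and blue points passed the test and grey points did not. TBC1D17 and RAB3GAP1 stand out with narrow intervals above 0, and the TBC1D3 copies have wide intervals.

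Of 15 tested, 5 were higher and 1 was lower, and the median change was 0.26. These were 33.3% and 6.67% of the class, against 18.3% and 19.8% of all genes, of which 38.1% passed. Without MB1-47 replicate 1, and also without an intensity trend, 2 were higher and 1 lower. DENND1B, an exchange factor for RAB35 that is known to limit T-cell receptor signalling in T helper cells, had 4173, 3949 and 4136 normalized counts with MB1-47 and 2844, 2631 and 2589 with DMSO. It rose 1.52-fold (0.60 ± 0.09, limma adjusted p = 0.000272). Its relatives DENND1A (0.21 ± 0.13) and DENND1C (0.39 ± 0.20) did not pass, and RAB35 itself was lower, as above.

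DENND2D, an exchange factor linked to RAB9, was the one lower member of this class. It had 3386, 3468 and 3653 normalized counts with MB1-47 and 5292, 5026 and 5534 with DMSO. No library of one group reached the other, and DENND2D fell 1.51-fold (-0.59 ± 0.08, limma adjusted p = 0.000247). That call held under every alternative.

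The DENND4 family activates RAB10. DENND4B rose to 2709 ± 218 with MB1-47, against 2048 ± 155 with DMSO (SD, n = 3; 0.40 ± 0.10), and kept its call without any 1 library. DENND4C had 4229, 2660 and 3496 with MB1-47 and 2607, 1950 and 2288 with DMSO. It rose by 0.59 ± 0.16, and the call was lost without MB1-47 replicate 1 (limma adjusted p = 0.0641) or replicate 3 (0.0509) or DMSO replicate 2 (0.0645). DENND4A did not pass (0.04 ± 0.12).

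RAB3IP, known as Rabin8, activates RAB8 and rose by 0.40 ± 0.14 (limma adjusted p = 0.0429). The call was lost with a replicate block and without MB1-47 replicate 1 (0.0536) or replicate 3 (0.173), DMSO replicate 1 (0.0508) or replicate 3 (0.166). DENND5A, which binds RAB6, had 537, 399 and 235 with MB1-47 and 242, 180 and 221 with DMSO. It stood just under the threshold with overlapping groups. The call was lost with either other pseudocount, with no filter, with the trimmed mean of M values and with quantile normalization, and it held without only 1 library, MB1-47 replicate 3; without MB1-47 replicate 1 its change was 0.52 in place of 0.79. Without each of the other 5 libraries in turn the limma adjusted p-value of DENND5A was 0.054 to 0.202. RABIF, a chaperone-like factor for exocytic RABs, was at 823 ± 59.1 with MB1-47 and 823 ± 33.5 with DMSO (SD, n = 3).

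The complex of RABGEF1 and RABEP1 loads GTP onto RAB5; RABEP1 fell and RABGEF1 did not pass. RABEP1, the RAB5 effector rabaptin-5, had 3330, 3958 and 3231 normalized counts with MB1-47 and 6126, 4894 and 5594 with DMSO. It fell 1.58-fold (-0.66 ± 0.11, limma adjusted p = 0.000792), with no overlap between groups. RABGEF1, the exchange factor, had 2038, 1667 and 2023 with MB1-47 and 2034, 1578 and 1251 with DMSO. It did not pass (0.26 ± 0.17, limma adjusted p = 0.251), but passed without DMSO replicate 1, the highest of its group.

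Of the 9 effectors and other members none was higher and 2, RABEP1 and RAB5IF, were lower. Lower genes were thus 22.2% of the class, near the 19.8% of all genes, and 18.3% of all genes were higher. RAB5IF, a small membrane protein named for binding RAB5, had the largest fall of all 108 genes that passed. It had 3449, 3288 and 3468 normalized counts with MB1-47 and 6342, 5632 and 5787 with DMSO. The groups were well apart, and RAB5IF fell 1.74-fold (-0.80 ± 0.09, limma adjusted p = 3.39e-05). RABEPK, a RAB9-binding protein, changed by -0.56 ± 0.21 and did not pass (limma adjusted p = 0.0567), and the RAB11 effectors of the RAB11FIP family did not pass. Without MB1-47 replicate 1, 4 genes of this class passed in place of 2, RAB4B-EGLN2 and RAB11FIP4 being added.

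Promoters are shown for genes at both ends of the response, to set their sequence beside the change. RefSeq windows on GRCh38.p14 were found for 88 of the 108 genes; TBC1D17 and RAB39B were among those without one. Each sequence below is the 250 bases before the gene's start, 5′ to 3′ on the gene's strand, with matches to the motifs searched in capitals. RAB5IF is the gene with the largest fall, RAB4B a RAB that doubled, and RAB5A, TBC1D15 and TBC1D20 are genes that rose and hold an E-box; the last 4 were chosen after their values were seen. The windows are chr20:36605529-36605778 (+) for RAB5IF, chr19:40777997-40778246 (+) for RAB4B, chr3:19946847-19947096 (+) for RAB5A, chr12:71839509-71839758 (+) for TBC1D15 and chr20:462534-462783 (-) for TBC1D20.
RAB5IF: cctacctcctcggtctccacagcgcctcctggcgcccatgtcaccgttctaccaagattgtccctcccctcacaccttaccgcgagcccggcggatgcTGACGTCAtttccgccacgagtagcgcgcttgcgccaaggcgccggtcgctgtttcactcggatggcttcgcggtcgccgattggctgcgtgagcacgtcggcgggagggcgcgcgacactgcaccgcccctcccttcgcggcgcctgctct
RAB4B: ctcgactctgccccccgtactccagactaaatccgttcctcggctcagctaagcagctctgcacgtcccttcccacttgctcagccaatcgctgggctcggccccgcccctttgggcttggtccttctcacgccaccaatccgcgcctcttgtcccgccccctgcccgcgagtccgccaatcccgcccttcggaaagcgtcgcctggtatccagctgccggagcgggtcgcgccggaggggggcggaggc
RAB5A: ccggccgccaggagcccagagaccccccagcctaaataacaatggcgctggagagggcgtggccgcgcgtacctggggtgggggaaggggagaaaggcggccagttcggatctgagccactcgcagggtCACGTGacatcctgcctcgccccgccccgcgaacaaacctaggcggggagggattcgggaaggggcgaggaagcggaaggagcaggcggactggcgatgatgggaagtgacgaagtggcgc
TBC1D15: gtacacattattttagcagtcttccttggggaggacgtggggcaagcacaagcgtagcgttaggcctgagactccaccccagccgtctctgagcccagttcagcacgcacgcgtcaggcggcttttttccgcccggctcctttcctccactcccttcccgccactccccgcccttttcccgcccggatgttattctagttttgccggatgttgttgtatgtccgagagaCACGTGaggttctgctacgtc
TBC1D20: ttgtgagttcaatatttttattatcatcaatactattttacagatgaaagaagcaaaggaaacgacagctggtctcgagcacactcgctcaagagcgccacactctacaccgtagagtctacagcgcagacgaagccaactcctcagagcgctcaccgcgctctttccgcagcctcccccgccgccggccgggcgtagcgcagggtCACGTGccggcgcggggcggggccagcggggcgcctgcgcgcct

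The motifs searched on both strands in the 300 bases from 250 before to 50 after the start were CACGTG (the E-box core bound by MYC and TFEB families), TGACGTCA (cAMP response element), TGACGTGG (bound by XBP1), TGATGCAAT (an ATF4 composite site) and TGTTTAC (a forkhead site); each window shown holds at most 1 match in all, so none overlap. CACGTG was in 18 of the 88 windows, or 20.5%, against 7.43% of 27305 promoters and 10.1% of those of 9774 tested genes. The TBC1D3 copies hold 5 of the 18, and without them the share was 13 of 83, or 15.7%. The E-box was in 5 of 24 windows of higher genes, 0 of 6 of lower genes and 13 of 58 of genes that did not pass. These are 20.8% of the windows of higher genes and 22.4% of those of genes that did not pass. RAB5IF and RAB11FIP3 held TGACGTCA, TBC1D23 held TGACGTGG, and no window held TGATGCAAT. All promoters held these 3 motifs at 1.98%, 0.795% and 0.264%, and promoters of tested genes at 3.2%, 0.952% and 0.123%. TGTTTAC was in 6 of the 88 windows, or 6.82%, against 3.41% of all promoters and 2.38% of those of tested genes. Without the TBC1D3 copies TGTTTAC was in 1 of 83. These are matches of letters and not measured sites.

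The rest of the RAB cycle was read from lists of 159 entries outside the symbol rule, of which 137 genes were tested. Of these 39 were higher and 13 lower, with a median of 0.18, and with equal library totals 53 and 7. The higher genes were 28.5% and the lower 9.49% of those tested, against 18.3% and 19.8% of all genes, and 38.0% passed in all, against 38.1%. The 13 lower genes became 7 without MB1-47 replicate 1 and 8 without DMSO replicate 2 or 3. Without an intensity trend in limma 30 were higher and 6 lower; of the genes named below, TRAPPC5, TRAPPC2L, TBCK, CHML, RILPL1, PIK3R4 and EXOC4 lost their calls.

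Among factors for prenylation and delivery, 6 of 12 were higher and 1 (8.33%) was lower, where 18.3% and 19.8% of all genes were. In all 58.3% of this small list passed, against 38.1% of all genes. RABGGTA, a subunit of the RAB prenyl transferase, rose by 0.57 ± 0.18, a call lost without MB1-47 replicate 1 or 2 or DMSO replicate 2 or 3. YIPF4 and YIPF5, Golgi membrane proteins of the family that binds RABs, rose by 0.77 ± 0.13 and 0.79 ± 0.10. GDI2, a GDP dissociation inhibitor, did not pass (-0.10 ± 0.10). CHML, an escort protein for newly made RABs, fell by 0.30 on the log2 scale. The CHML call was lost with equal library totals and when any library but MB1-47 replicate 3 was left out.

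Exchange factors of other families had 11 higher (25.0%) and 4 lower (9.09%) of 44, against 18.3% and 19.8% of all genes. RIC1 and RGP1 form the exchange factor of RAB6. RIC1 had 3401, 3243 and 3059 normalized counts with MB1-47 and 1632, 1819 and 1800 with DMSO. RIC1 rose 1.85-fold (0.89 ± 0.10, limma adjusted p = 4.04e-05), RGP1 rose by 0.38 ± 0.11, and RAB6A and RAB6B were higher as given above; RIC1 and RGP1 were added after their values were seen. The RGP1 call was lost without MB1-47 replicate 3 or DMSO replicate 1. C9orf72, part of a complex that acts on RAB39B and RAB8A, rose by 0.85 ± 0.23 (added), while its partners SMCR8 and WDR41 did not pass (0.16 and -0.15); its own call was lost without MB1-47 replicate 3 or DMSO replicate 3. FNIP1 and FLCN are the folliculin pair with DENN domains, listed by family and not by shown exchange activity on a RAB. FNIP1 rose by 1.21 ± 0.11, FLCN by 1.02 ± 0.18 and TRAPPC6B, a subunit of the RAB1 exchange complex, by 1.11 ± 0.13. The lower genes were VPS9D1 (-1.02), TRAPPC5 (-0.86), SH3BP5 (-0.79) and TRAPPC2L (-0.63, added); TRAPPC5 lost its call with equal library totals and without MB1-47 replicate 1, DMSO replicate 2 or replicate 3. TRAPPC2L lost its call with equal library totals, with a replicate block and when any library but MB1-47 replicate 3 or DMSO replicate 2 was left out. MON1A, MON1B, CCZ1 and CCZ1B, of the RAB7 exchange factor, did not pass.

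Effectors and tethers outside the symbol rule had 21 higher (33.9%) and 5 lower (8.06%) of 62, against 18.3% and 19.8% of all genes. RUFY3, a RAB- and ARL8-linked adaptor of lysosome movement, had 12407, 10753 and 10359 normalized counts with MB1-47 and 3964, 4903 and 4249 with DMSO, a rise of 1.35 ± 0.10. APPL2, a RAB5 effector, rose by 1.12 ± 0.14. Golgi tethers were among the higher genes, with USO1, a RAB1 effector, at 1.03 ± 0.09, GOLGA5 at 1.07 ± 0.19 and GOLGA2 at 1.03 ± 0.18 (all added). RILPL1 (1.18 ± 0.43) passed at a limma adjusted p of 0.0489. That call was lost when any library but DMSO replicate 2 was left out, with no filter, with the trimmed mean of M values and with quantile normalization. MICAL2, PIK3R4 and EXOC4 passed as lower genes, with changes of -0.76, -0.57 and -0.40. EXOC4 lost its call with equal library totals, with quantile normalization and without MB1-47 replicate 1 or replicate 3, DMSO replicate 1 or replicate 2. Other EXOC genes were higher, namely EXOC1 (0.86 ± 0.18), EXOC6B (0.67 ± 0.19) and EXOC8 (0.58 ± 0.12), and so was PIK3C3 (0.75 ± 0.14, all added). EXOC2, EXOC3, EXOC5, EXOC6 and EXOC7 did not pass. Of 8 other TBC proteins TBCK alone passed (0.60 ± 0.17), and not without MB1-47 replicate 3 or DMSO replicate 1. Of 11 RAB-like proteins and kinases none was higher and 3 (27.3%) were lower, against 18.3% and 19.8% of all genes. The 3 were IFT22 (-0.92 ± 0.24), RABL6 (-0.59 ± 0.11) and the kinase TBK1 (-0.52 ± 0.13), with the IFT22 call lost without DMSO replicate 2.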

How the data were processed

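Gene-level values of 6 libraries were used. The submitters' processing notes name kallisto 0.44.0, DESeq and the build GRCh38.p13; annotation, transcript summing and filters stay unnamed in these notes. The deposited values are normalized counts, used as a signal that is never negative. kallisto divides reads among similar transcripts, so paralogs, copies and read-through transcripts are uncertain. Of the low values (above 0 and under 20), 59.0% to 64.4% per library came within 0.1 of whole multiples of 1 step. Whole reads could thus not be had back, no count model was used, and intervals or floors from counts are not given.

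All genes whose mean reached 10 were tested with limma 3.58.1 in R 4.3.3 on log2(value + 1), which understates changes of low genes, with an intensity trend and Benjamini-Hochberg adjustment. A simulation with 200 genes of known change was used to test the fit. Gene types and positions came from GENCODE 29 on GRCh38, promoters from RefSeq on GRCh38.p14. Plots used matplotlib 3.10.9 and Python 3.11.15. Members, roles and lists were chosen with earlier results of these data known. The naming rule took, per class, up to 5 rises and 5 falls (up to 3 in the other lists) among called genes averaging at least 50, and a set of well-known members; TBC1D19, TBC1D23, TBC1D24 and RAB3GAP2 and genes marked as added were chosen after their values were seen, as were members that did not pass and were not in that set. RAB32 is not analysed here, and protein sequences were not used. Some results are not reported here. Alternatives were pseudocounts of 0.5 and 5, no filter or a minimum of 50, 3 other scalings, no trend, a replicate block and leaving out each library.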

Additional observations from a re-analysis of the deposited data

How the results depend on the processing

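Over 15 alternatives, 23 of the 35 called members kept direction and call. The number of members that passed was 35, and 27 to 34 with 1 library left out. For RAB GTPases it was 15 (11 to 17), for GTPase-activating proteins 12 (8 to 12), for exchange factors 6 (3 to 5, with 3 without MB1-47 replicate 1), for effectors and other members 2 (2 to 4), for the other genes of the RAB cycle 52 (41 to 47) and for all genes 5125 (4146 to 4742). Without an intensity trend 3 exchange factors and 36 other genes of the cycle passed; the cause was not tested. RAB7A turned from -0.12 to 0.01 with equal library totals, where the median of all genes moves by design of the scaling. Of the members that did not pass, 23 changed sign under at least 1 alternative, among them RAB7A, RAB5C, RAB21, RAB33A, RAB6D, RAB4A, RAB4B-EGLN2, RABIF and DENND4A. With equal library totals the GTPase-activating proteins had 16 higher and 0 lower. Replicate numbers did not pair the libraries: deviations of same-numbered libraries correlated at 0.022, 0.057 and 0.0072, and MB1-47 replicate 3 correlated best with DMSO replicate 1. With the replicate block 39 members passed (19 RAB GTPases, 12 GTPase-activating proteins, 5 exchange factors, 3 effectors and other members), as did 52 other genes of the cycle and 5246 genes in all. Count-based tests were not run because whole reads were not recovered. Depth is unknown, so low genes such as RAB6B, RAB3A and the TBC1D3 copies are the least certain.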
